A study of Homo sapiens with 18 samples.

Results

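The genes of DNA replication licensing and of the replication fork were followed across sorted osteosarcoma cells as 50 named genes, chosen by function from 19775 genes with a probe set on the array. Each gene was represented by the probe set annotated to it alone with the highest mean signal over the 18 arrays. All 50 had such a probe set and passed the filter on low signals, under which 14418 genes were tested. The filter asks that a probe set reach 5.36 on the log2 scale, the median of the whole table, on at least 3 arrays. All 50 reached that value on each of the 16 bone tumor arrays, and 26 reached it on all 18 arrays.

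Before a cell copies its DNA, the origin recognition complex (ORC) marks origins, and CDC6 and CDT1 load the helicase ring of MCM2 to MCM7 onto them, a step called licensing that GMNN blocks once replication is under way. The kinase CDC7 with its activator DBF4, together with MCM10, CDC45 and the GINS complex, then turns the ring into a moving helicase. Polymerases, the sliding clamp PCNA, its loader RFC and the single-strand binding protein RPA build the fork behind it. Many of these genes are transcribed under control of E2F factors at the entry into S phase, so that cycling cells carry more of their transcripts than resting cells.

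Both cell lines, MNNG/HOS (shortened to MNNG in group names) and 143B, descend from a single human osteosarcoma line, the former through a chemical carcinogen and the latter through an activated RAS gene. Cells of all groups carried the green fluorescent protein ZsGreen, and both lines were grown as orthotopic bone tumors. PKH26 is a membrane dye that each division dilutes. Sorted cells that kept the dye are called High (tumor-initiating cells in the labels) and sorted cells that had lost it Low (bulk tumor cells). There were 4 MNNG_High and 4 MNNG_Low arrays from tumors MNNG-1235, MNNG-1233, MNNG-1232 and MNNG-1231. For 143B there were 5 Low arrays from tumors 143B-1251 to 143B-1255 and 3 High arrays, of which 1 came from tumor 143B-1253 and the other two each pooled a pair of tumors, named 51&52 and 54&55, whose digits are read here as the ends of 143B tumor numbers. The 2 MNNG_Lung arrays came from MNNG/HOS lung metastases, 1 numbered 1233 and 1 labelled as a mix, and no dye class is given for them. Each group stands for a single cell line. Tumor numbers mark separate tumors. The p-values rest on the spread between arrays within groups, pooled over all 5 groups with the lung arrays included, and not on a spread between lines. In bulk RNA fewer cells of a type and less RNA per cell cannot be told apart.

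The arrays were not alike in spread. Interquartile ranges on the log2 scale ran from 2.76 to 3.18 on the MNNG_High arrays, 3.29 to 3.40 in MNNG_Low, 3.26 to 3.48 in both 143B groups and only 2.09 to 2.28 on the lung arrays. Across probe sets, the 2 lung arrays had r = 0.865 between them and no closer neighbor, whereas each bone tumor array had a neighbor at 0.978 or above. All MNNG_High arrays, Low MNNG-1231 and the lung arrays carry 1 date tag in the labels, the other three MNNG_Low arrays another, and all 143B arrays a tag of their own.

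Promoters are shown here because E2F sites are a feature that these genes are known to share. The RefSeq promoter table (GRCh38.p14, from 250 bases before to 50 bases after a transcript start) held 43 of the 50 genes. The letters TTTGGCGC, TTTGCCGC, TTTCGCGC or TTTCCCGC were searched on both strands, and matches may overlap. A match was present for 21 of the 43 genes (48.8%), against 3.99% of all 27305 genes in the table and 3.31% of its 35116 windows of 300 bases. It was present for 15 of 41 other genes of the same pathway and for 3 of 23 mitosis genes. The stretches below belong to genes that were lower in MNNG_High with a small p-value and had a match before the start, each printed 5′ to 3′ along the gene's strand with the matching letters in capitals.
UNG, chr12:109098098-109098127, plus strand: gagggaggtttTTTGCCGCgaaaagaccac
GMNN, chr6:24775322-24775351, plus strand: gctgggtcggtTTTGGCGCgctctcacttc
MCM3, chr6:52284743-52284942, minus strand: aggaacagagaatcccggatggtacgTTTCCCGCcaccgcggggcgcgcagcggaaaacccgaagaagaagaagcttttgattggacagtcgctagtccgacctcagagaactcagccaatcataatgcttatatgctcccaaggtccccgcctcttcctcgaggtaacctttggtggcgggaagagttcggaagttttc
CDC7, chr1:91501033-91501062, plus strand: gtgcagttcctTTTCCCGCcccccttcgga
CDC7, chr1:91501067-91501096, plus strand: tccgacctgcgGCGGGAAAgtcgcgcgcct
Counted from the start, with negative positions before it, the capitals begin at -63 in UNG, -80 in GMNN and -174 in MCM3, whose stretch covers the 200 bases before its start and whose other match crosses the start itself. CDC7 holds a match on each strand, at -68 and -34. MCM6 had 4 matches between -152 and -86, and E2F1 itself had 2, at -33 and -20. In MCM2 and CDC6 the matches began 3 to 8 bases after the start. DBF4, MCM10 and TIMELESS, with smaller p-values in MNNG_High than the genes printed, had no match. PCNA, MCM7 and LIG1, which were not called there, had one or more.

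The first comparison asked which replication genes differ between dye-retaining and dye-diluted cells of MNNG/HOS tumors. Of the 50 genes, 23 fell in MNNG_High and 1, E2F1, rose (limma, adjusted p below 0.05 over all genes tested). That is 46% of the set called lower, against 15.5% of all genes called lower, 10.6% called higher and 26.1% called in all. The log2 difference was below 0 for 47 of the 50, against 63.4% of all genes, and its median was -0.46 against -0.19 over all genes. The share of all genes below 0 was larger at higher signal levels, as given below. For 24 genes every MNNG_High array lay below every MNNG_Low array (48%, against 19.4% of all genes), and 16 of these were among the 23. For none did every High array lie above every Low array (all genes: 10.4%).

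DBF4, the activator of the CDC7 kinase that fires licensed origins, showed the largest difference. Its log2 signal was 7.55, 8.05, 7.63 and 8.62 in MNNG_High and 9.08, 8.87, 9.06 and 9.05 in MNNG_Low, in rising order of tumor number, which is kept in the values that follow. All 4 High arrays lay under all 4 Low arrays, with High MNNG-1235 nearest to them. DBF4 was 2.07-fold lower (log2 difference -1.05 ± 0.19 SE, n = 4 and 4, limma adjusted p = 0.00397).

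MCM10, which binds the loaded helicase and helps to activate it, followed. Its signal was 7.50, 7.44, 7.26 and 8.01 in MNNG_High and 8.58, 8.18, 8.52 and 8.36 in MNNG_Low. The groups did not overlap, and the gap was again smallest for tumor MNNG-1235. The difference was -0.86 ± 0.15 (limma adjusted p = 0.00355), and its other two probe sets lay at -0.26 and -0.56 without passing the threshold. CDC7 itself, the kinase partner of DBF4, fell by 0.72 ± 0.20 on the log2 scale (limma adjusted p = 0.0185), with High MNNG-1233 lowest at 6.89 and High MNNG-1235 at 8.05, inside the Low range of 7.99 to 8.44. GINS2 and GINS3, subunits of the 4-part GINS complex, were called lower on their chosen probe sets (-0.47 and -0.50), and CDC45, GINS1 and GINS4 were not (-0.42, -0.30 and -0.01). GINS2 depended on the probe set: a second one lay at 0.85 and was called higher (limma adjusted p = 0.00384), and another at -0.18 was not called.

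All 6 genes of the MCM ring lay below 0, between -0.57 for MCM5 and -0.40 for MCM7, and 3 of them passed the test. MCM3, a ring subunit, had a signal of 8.77, 8.49, 8.36 and 8.60 in MNNG_High and 9.14, 8.83, 9.23 and 9.05 in MNNG_Low. The highest High array stayed below the lowest Low array. MCM3 fell by 0.51 ± 0.13 (limma adjusted p = 0.0130), and MCM2 and MCM6, ring subunits as well, fell by 0.54 ± 0.14 and 0.46 ± 0.15. MCM4 was not called on its chosen probe set (-0.42 ± 0.25), while 2 of its other four probe sets were called lower (-0.56 and -0.995). A second MCM7 probe set was called lower at -0.47.

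Of the origin recognition genes, ORC1, the cell-cycle regulated subunit, fell by 0.49 ± 0.17. On their chosen probe sets ORC2 to ORC6 lay between -0.56 and -0.11 without a call. Second probe sets of ORC2 and ORC5 were called lower, at -0.57 and -0.71. All 3 loading genes fell. CDC6, the loader, had a signal of 6.18, 6.54, 6.44 and 6.37 in MNNG_High and 6.79, 6.89, 7.03 and 6.61 in MNNG_Low, and GMNN, the licensing inhibitor, 8.51, 8.75, 8.39 and 8.81 against 9.21, 8.96, 9.30 and 9.30. Neither gene overlapped between the groups. CDC6 fell by 0.45 ± 0.13 and GMNN by 0.58 ± 0.14 (limma adjusted p = 0.0207 and 0.0110). CDT1, the partner of CDC6, fell by 0.52 ± 0.17 on its chosen probe set and lay at -0.01 on a second one.

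Among the polymerase genes 5 of 8 fell. They were the catalytic and the large regulatory primase subunits PRIM1 and PRIM2 (-0.62 ± 0.17 and -0.72 ± 0.19), the catalytic subunits of polymerases alpha and delta, POLA1 (-0.60 ± 0.19) and POLD1 (-0.58 ± 0.14), and POLD3, an accessory subunit (-0.44 ± 0.15). POLE, POLE2 and POLA2 were at -0.38, -0.63 and -0.24 and were not called. A second POLA2 probe set was called higher at 0.46, and a second POLD3 probe set lay at 0.28 without a call. None of the 6 genes of the clamp and its loader was called on its chosen probe set, with PCNA at -0.19 ± 0.21 and RFC2 at -0.72 ± 0.28 (limma adjusted p = 0.482 and 0.0637). A second RFC2 probe set was called lower at -0.82, and so were the other RFC5 probe sets, at -0.72 and -0.43. FEN1 and LIG1, which finish the lagging strand, were at -0.32 and 0.06 without a call. RPA2 and RPA3 fell (-0.44 ± 0.15 and -0.64 ± 0.21), and RPA1, at -0.52 ± 0.23, did not pass although its groups did not overlap. A second RPA1 probe set was called lower at -0.52, and another lay at -0.12 without a call.

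TIMELESS, which steadies the moving fork, had a signal of 8.24, 8.25, 7.68 and 8.56 in MNNG_High and 9.03, 8.75, 8.93 and 8.78 in MNNG_Low. UNG, which removes uracil from new DNA, had 8.64, 8.53, 8.79 and 8.89 against 9.27, 9.10, 9.18 and 9.23. In both genes the groups were apart. TIMELESS fell by 0.69 ± 0.15 and UNG by 0.48 ± 0.12 (limma adjusted p = 0.00807 and 0.0105). CHAF1B, a histone chaperone subunit that works behind the fork, fell by 0.43 ± 0.15, and its partner CHAF1A and the histone mRNA binding protein SLBP were at -0.19 and -0.17 without a call. Other CHAF1A probe sets lay at -0.47, called lower, and at -0.16, not called.

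The genes of S phase entry gave mixed results. E2F1, the transcription factor, had 8.76, 8.16, 8.87 and 8.27 in MNNG_High against 8.16, 7.94, 7.91 and 8.01 in MNNG_Low. Tumors MNNG-1231 and MNNG-1233 gave the high values, and High MNNG-1232 reached the level of Low MNNG-1231. E2F1 rose by 0.51 ± 0.15 (limma adjusted p = 0.0225), and its second probe set was at 0.11 without a call. The E2F1 call was lost with only the 2 groups in the fit, the mean over probe sets, array weights, the GAPDH covariate and both date tag settings, with adjusted p from 0.0640 to 0.931 by limma and differences from 0.22 to 0.51. The call on E2F1 was lost as well when High MNNG-1231, High MNNG-1233, Low MNNG-1232 or Low MNNG-1233 was left out. CCNE2, a cyclin that activates CDK2 at the start of S phase, fell by 0.65 ± 0.21, while its paralog CCNE1 was at 0.06 ± 0.14.

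**Figure D1:**
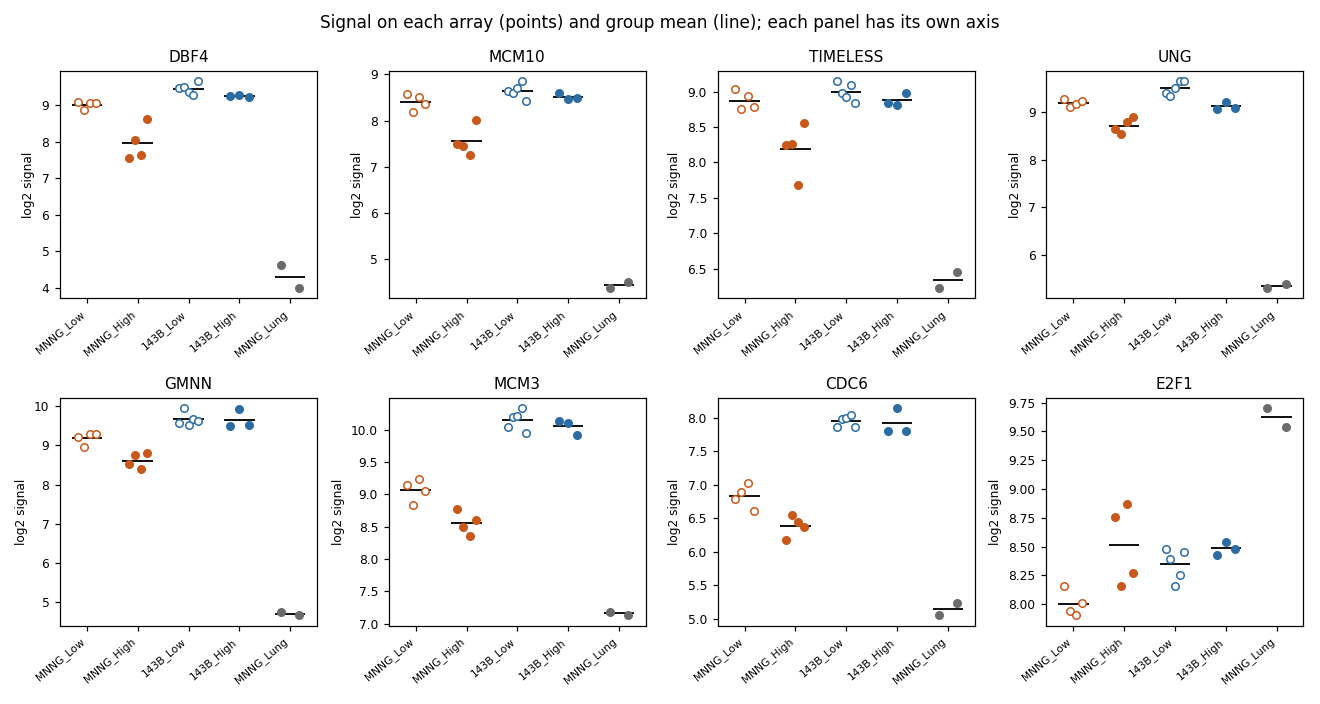
Log2 signal of 8 replication genes on each array (points, open for Low and filled for High and lung) with the mean of each group (line); every panel has its own axis, so levels are not to be read across genes. In MNNG/HOS the High arrays of DBF4, MCM10, TIMELESS, UNG, GMNN, MCM3 and CDC6 lie below all Low arrays and those of E2F1 lie mostly above, and the lung arrays are lowest except in E2F1, where they are highest.

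Most of the genes were lower in High within each tumor. High lay below Low for 46 genes in tumor MNNG-1231, 44 in MNNG-1232, 47 in MNNG-1233 and 45 in MNNG-1235, with medians of -0.49, -0.34, -0.61 and -0.30, against -0.28, -0.07, -0.25 and -0.07 over all genes. Of all genes, 65.3%, 59.1%, 62.2% and 61.4% were lower in High, in the same order. Lower in all 4 tumors were 41 of the 50 (all genes: 41.8%), and higher in all 4 was E2F1 alone (all genes: 18.9%). The other eight genes with mixed signs were ORC5, ORC6, GINS4, RFC1, LIG1, CCNE1, CHAF1A and SLBP. In single tumors DBF4 ranged from -1.53 in tumor MNNG-1231 to -0.43 in MNNG-1235 and TIMELESS from -1.25 in MNNG-1233 to -0.22 in MNNG-1235, with tumor MNNG-1235 giving the smallest gap in both genes, while UNG ranged only from -0.63 to -0.35.

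**Figure D2:**
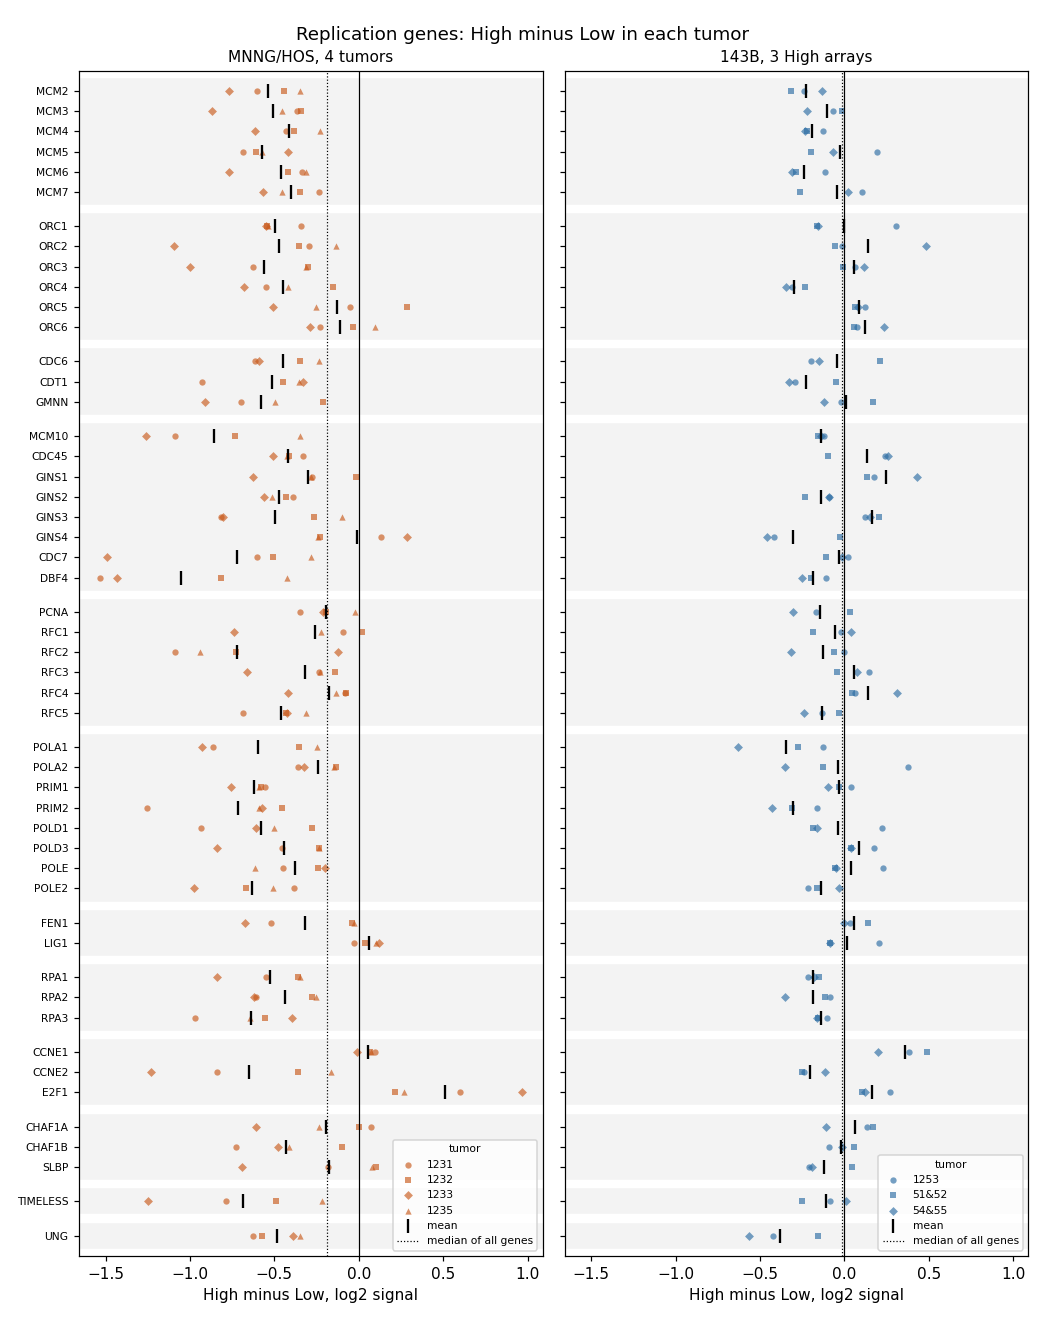
High minus Low (log2 signal, horizontal axis) for each of the 50 genes, grouped by role, in the 4 MNNG/HOS tumors (left) and for the 3 143B High arrays (right, each pooled array set against the mean of its 2 Low arrays); black ticks are means and dotted lines the median of all genes. Most MNNG/HOS points lie left of 0, with E2F1 on the right, and the 143B points gather around 0.

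In MNNG/HOS, how far the 50 genes lay below all genes moved with signal level, and their own difference moved with scaling. When the genes tested were split into 4 equal bins by mean signal over all arrays, the 50 genes lay in the upper 3 bins (11, 21 and 18 genes from dim to bright). Their median differences there were -0.45, -0.47 and -0.45, against -0.08, -0.37 and -0.30 for all genes of those bins, whereas all genes of the dimmest bin lay at 0.27. Below 0 lay 11, 18 and 18 of the 50 genes, against 55.6%, 85.7% and 87.9% of all genes in those bins. In the dimmest bin 24.3% of all genes lay below 0. A second quantile normalization, which brings all 18 arrays to 1 distribution, moved the median of all genes from -0.19 to 0.01 and that of the 50 genes to -0.18, with 38 of them below 0. It left 3 called lower (MCM10, DBF4 and PRIM2) and E2F1 called higher, 4 of the 50, when 7.22% of all genes were called. Against 24 calls in both directions, there were 8 without Low MNNG-1233, 11 without Low MNNG-1231, 13 without High MNNG-1231 and 15 without High MNNG-1233. Of all genes, 11.6%, 15.7%, 9.54% and 11.6% were called, in the same order.

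With the tumor as a block and the lung arrays left out 37 genes were called lower and E2F1 higher, when 55.8% of all genes were called. Without the lung arrays and without the block it was 35 and 1 (44.4% of all genes). All 23 genes lower in the fit of 18 arrays were lower in both. High arrays of MNNG/HOS share a date tag with only 1 Low array, MNNG-1231. Within that tag the median of the 50 genes was -0.55 against -0.14 over all genes, 47 of 50 lay below 0, and no gene of the 14418 was called with 1 Low array (353 at an unadjusted p below 0.05 by limma). With the tag as a covariate none of the 50 was called and 3 of all genes were (2169 at an unadjusted p below 0.05).

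**Figure D3:**
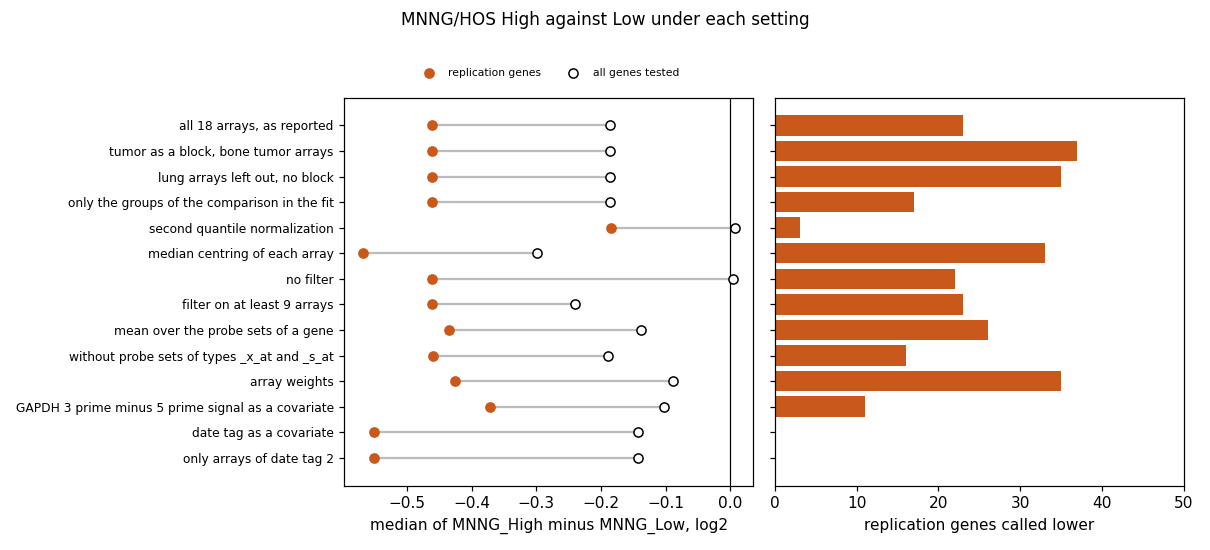
Median of MNNG_High minus MNNG_Low on the log2 scale for the 50 replication genes (filled) and for all genes tested (open) under each setting (left), and the number of replication genes called lower (right, bars from 0, of 49 genes with the mean over probe sets and 35 without the 2 probe set types). The replication genes lie left of all genes in each of the 14 settings, and the count runs from 0 to 37.

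Other measures moved with the same groups. The probes are human and the cells came from mouse hosts, so host cells register in the cell type markers only by cross-hybridization. The summed level of macrophage markers (11 of 12 with a probe set, of which 7 passed the filter), given as their mean log2 signal, was 5.71 to 6.12 on the MNNG_High arrays and 5.11 to 5.24 in MNNG_Low, and 4 of the 7 were called higher. Of the 11, 7 had an MNNG_High mean at the filter value or above and 5 an MNNG_Low mean. AIF1 and SPI1 were higher in High by 2.34 ± 0.27 and 1.65 ± 0.28 (9.76 against 7.42 and 7.53 against 5.88), and the median over the 7 tested was 0.62. CD163, TYROBP, C1QB and MRC1 had means under the filter value in both groups, between 4.45 and 4.67 in High and 3.91 and 4.36 in Low. Skeletal muscle markers were at 5.32 to 5.62 against 4.95 to 5.10 and lung epithelium markers at 5.73 to 6.25 against 5.50 to 5.56. The difference between 3′ and 5′ GAPDH control signals, a measure of RNA integrity, was 0.50 to 0.75 in High and 0.34 to 0.41 in Low, while that of ACTB ran the other way, at 0.75 to 1.55 in High and 1.38 to 1.74 in Low. With the GAPDH difference as a covariate 11 of the 50 genes were called lower, 10 of them among the 23, and none higher, when 10.7% of all genes were called. The part of the marker signals in the result was not tested.

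Other genes of the pathway gave a similar picture. Of 50 further replication genes 47 were tested, 22 fell in MNNG_High and none rose, with a median of -0.46. The 6 with the smallest p-values were MCM9, a helicase of DNA repair (-1.07 ± 0.19), HELLS, a chromatin remodeler (-0.91 ± 0.19), RNASEH2B, a subunit of the enzyme that removes RNA from DNA (-0.88 ± 0.14), TIPIN, the partner of TIMELESS (-0.79 ± 0.19), UHRF1, which carries DNA methylation through replication (-0.76 ± 0.16), and DSCC1, part of an alternative clamp loader (-0.64 ± 0.12). Of 28 mitosis genes 13 fell and none rose, with a median of -0.56.

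The same question in 143B tumors gave no call. No replication gene passed the threshold in 143B_High against 143B_Low (n = 3 and 5), and 1 of the 14418 genes did, 0.00694% of them, with 745 genes and 2 of the 50 at an unadjusted p below 0.05. The median of the 50 was -0.09 against -0.02 over all genes, and 34 lay below 0 (68%, against 53.6%). In 8 genes all High arrays lay below all Low arrays (16%, against 6.53% of all genes), namely MCM2, MCM6, ORC4, DBF4, POLA1, PRIM2, RPA3 and UNG, and in none above (all genes: 5.34%).

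UNG had the smallest p-value. Its signal was 9.07, 9.22 and 9.08 in 143B_High (143B-1253, 51&52 and 54&55) and 9.40, 9.34, 9.49, 9.64 and 9.65 in 143B_Low (143B-1251 to 143B-1255). Every High array lay under every Low array, at a difference of -0.38 ± 0.12 (limma adjusted p = 0.653, unadjusted p = 0.00485). CCNE1 was the other gene, at 0.38 ± 0.15 (limma adjusted p = 0.879), with 9.40, 9.28 and 9.09 in High and 8.55, 9.03, 9.01, 9.13 and 8.65 in Low. High 54&55 lay inside the Low range. On their chosen probe sets the 6 MCM ring genes were all below 0, from -0.25 ± 0.15 for MCM2 to -0.06 ± 0.24 for MCM5. Of the 5 MCM4 probe sets 2 lay below 0, and the highest of the others was at 0.11. DBF4 and MCM10 were at -0.20 ± 0.20 and -0.13 ± 0.16.

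By array, 28 of the 50 were lower in High for tumor 143B-1253, 35 for the pool 51&52 and 35 for the pool 54&55. These are 56%, 70% and 70%, against 51.2%, 48.9% and 57.9% of all genes. The medians were -0.02, -0.08 and -0.11, against -0.007, 0.005 and -0.05 over all genes. High was lower on all 3 for 20 genes (all genes: 25.6%) and higher on all 3 for 8 (all genes: 19.8%), which were ORC5, ORC6, GINS1, GINS3, RFC4, POLD3, CCNE1 and E2F1. Second probe sets of GINS3 and E2F1 lay at -0.12 and -0.15 in High against Low. Of 23 genes with several probe sets that passed the filter, 14 had all of them in 1 direction. With limma array weights 1 of the 50 was called, UNG, when 201 of all genes were (1.39%). No other pathway gene and no mitosis gene was called, and 23 of the 28 mitosis genes lay above 0, with a median of 0.19. HELLS, the other pathway gene with the smallest p-value, was at -0.64 ± 0.19 (limma adjusted p = 0.607).

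Whether the 2 lines differed in their dye classes was tested directly, as the High minus Low difference in 143B less that in MNNG/HOS. No replication gene was called, and 1 gene of all was (0.00694%). For 47 of the 50 the value lay above 0, meaning that the High minus Low difference was lower in MNNG/HOS, with a median of 0.38 against 0.15 over all genes. The largest values were 0.85 ± 0.28 for DBF4 and 0.73 ± 0.22 for MCM10 (limma adjusted p = 0.453 for each). There were 13 of the 50 at an unadjusted p below 0.05, against 1449 of all genes. UNG was at 0.10 ± 0.17 and MCM6 at 0.22 ± 0.22, and E2F1 at -0.38 ± 0.21. With array weights 3 of the 50 were called, MCM10, DBF4 and PRIM1, when 234 of all genes were (1.62%).

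Dye-diluted cells of the 2 lines were compared next. Of the 50 genes 17 were higher in 143B_Low than in MNNG_Low (n = 5 and 4) and none was lower, which is 34% against 14.4% of all genes called higher, 14.5% called lower and 28.8% called in all. The median difference was 0.32 against -0.04 over all genes, and 39 of 50 lay above 0. All 143B_Low arrays lay above all MNNG_Low arrays for 21 genes (42%, against 18.1% of all genes) and below them for 3, MCM4, ORC3 and RPA1 (6%, against 20.2%). MNNG_Low enters this comparison, the High against Low comparison and a lung comparison, so the same arrays stand in each of them.

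CDC6 had the largest difference. Its signal was 7.86 to 8.04 over the 5 143B_Low arrays and 6.61 to 7.03 in MNNG_Low. The groups were far apart, and CDC6 was 2.17-fold higher in 143B_Low (1.12 ± 0.12, limma adjusted p = 1.01e-06), with its second probe set at 1.44. GMNN was higher by 0.47 ± 0.13, and CDT1, at 0.42 ± 0.16, was not called on its chosen probe set and was called at 0.72 on the other.

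The MCM ring genes split. MCM3 had 10.04, 10.19, 10.20, 10.33 and 9.95 in 143B_Low, for tumors 143B-1251 to 143B-1255, against 8.83 to 9.23 in MNNG_Low, and MCM2 10.52, 10.36, 10.26, 10.40 and 10.33 against 9.10 to 9.58. Both were apart, at 1.08 ± 0.12 and 1.03 ± 0.14 (limma adjusted p = 1.75e-06 and 1.17e-05), and MCM5 was higher by 0.63 ± 0.22. MCM6 and MCM7 were at 0.34 ± 0.15 and -0.01 ± 0.17 without a call. MCM4 went the other way: its signal was 9.04 to 9.36 in 143B_Low and 9.59 to 9.87 in MNNG_Low with no overlap, at -0.47 ± 0.24 (limma adjusted p = 0.156). All 5 MCM4 probe sets lay below 0, and 2 of them were called lower, at -0.68 and -0.91.

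At the fork, FEN1, the flap nuclease of the lagging strand, was higher by 0.97 ± 0.13 (10.14 to 10.42 against 9.06 to 9.47), RFC4, a clamp loader subunit, by 0.90 ± 0.12 (9.63 to 10.09 against 8.93 to 9.12) and POLA2, a subunit of polymerase alpha, by 0.90 ± 0.16 (7.24 to 7.57 against 6.11 to 6.72). None of the 3 overlapped, and a second POLA2 probe set lay at 0.04 without a call. PCNA was higher by 0.62 ± 0.20, PRIM2 by 0.55 ± 0.18, RPA2 by 0.64 ± 0.15 and RPA3 by 0.69 ± 0.20, and RPA1 was at -0.29 ± 0.22. A second RPA1 probe set was called lower at -0.46. The cyclins CCNE1 and CCNE2 were higher by 0.77 ± 0.14 and 0.75 ± 0.20, GINS2 and GINS3 by 0.58 ± 0.15 and 0.51 ± 0.15 and UNG by 0.31 ± 0.11. Other GINS2 probe sets lay at 0.02 and 0.33 without a call. No ORC gene was called, with values from -0.64 ± 0.36 for ORC3 to 0.38 ± 0.26 for ORC4. DBF4 and MCM10 were at 0.44 ± 0.18 and 0.24 ± 0.14 without a call.

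**Figure D4:**
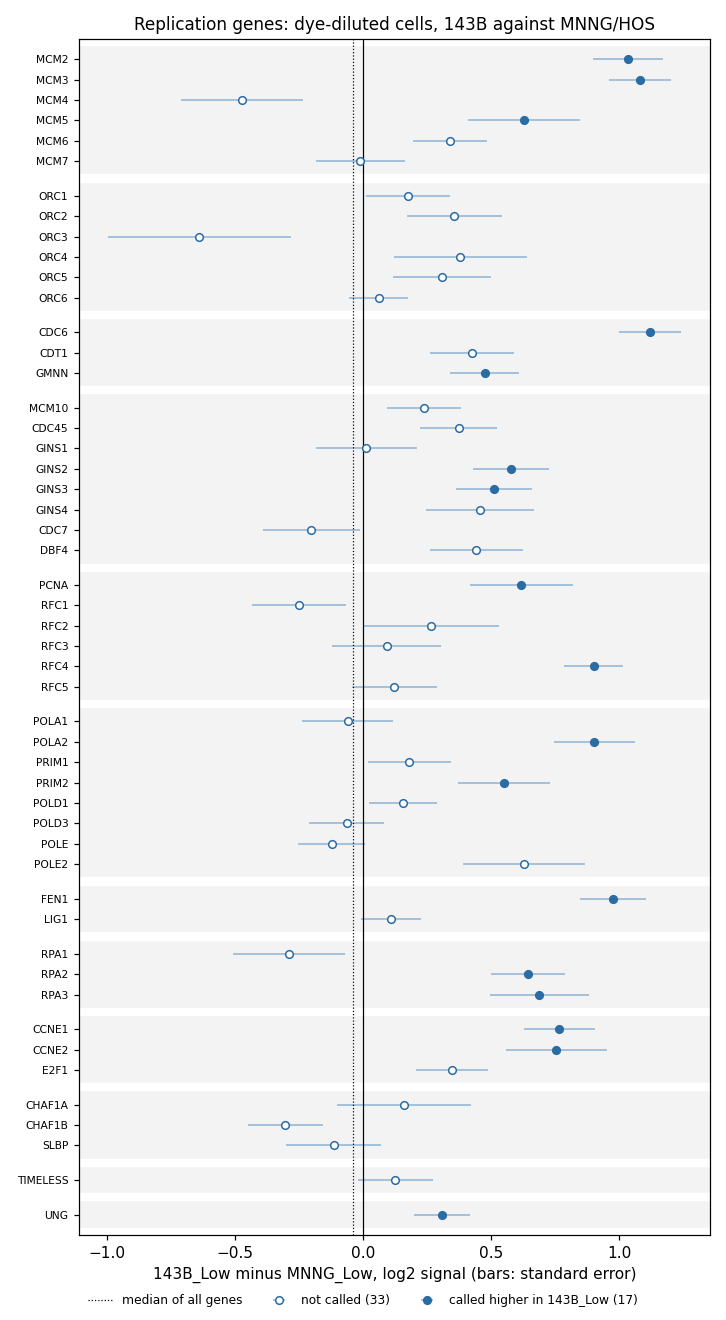
143B_Low minus MNNG_Low on the log2 scale (points, with standard errors) for the 50 genes by role; filled points are the 17 called higher in 143B_Low, open points the other 33, and the dotted line is the median of all genes. CDC6, MCM3, MCM2 and FEN1 lie farthest to the right, and MCM4 and ORC3 farthest to the left without a call.

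The line comparison kept its direction over the scalings tried. After a second quantile normalization 12 of the 17 were called (22.5% of all genes) and after median centring all 17 (28.6%). Leaving out MNNG_Low MNNG-1232 gave 11 calls (24.1% of all genes). Lines and date tags cannot be told apart, since all 143B arrays carry 1 tag. Of the other pathway genes 11 were higher and 5 lower, among them E2F8, a repressor of E2F targets, at 2.02 ± 0.17 (its MNNG_Low mean of 5.32 was under the filter value, so the size is uncertain), CDC25A, a phosphatase that activates CDK2, at 1.06 ± 0.15, CLSPN, a fork checkpoint adaptor, at 0.95 ± 0.17, and ASF1A, a histone chaperone, RNASEH2B and MCM9 at -1.12 ± 0.15, -1.08 ± 0.13 and -0.82 ± 0.18. Of the mitosis genes 3 were higher and 3 lower, with a median of -0.01.

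Across the 4 bone tumor groups, MNNG_High had the lowest mean for 43 of the 50 genes, MNNG_Low and 143B_High for 3 each and 143B_Low for 1. Over all 5 groups, 143B_Low had the highest mean for 26 genes, 143B_High for 12, MNNG_Low for 10 and the lung arrays for 2. The lung arrays had the lowest mean of all 5 groups for 44. Between neighbors in this order, the 143B_High and 143B_Low means did not pass the test for any gene, and those of MNNG_High and MNNG_Low did for 24. The order of group means was not counted over all genes. In the bins by mean signal that held 21 and 18 of the 50 genes, most genes shared these directions. There 85.7% and 87.9% of all genes were lower in MNNG_High than in MNNG_Low, and 81.4% and 92.0% lower in lung than in MNNG_Low. In the bin with the other 11 genes both shares were smaller. Whether the order is particular to the 50 genes was not tested.

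The lung arrays stood apart from all others. Against MNNG_Low (n = 2 and 4) 42 of the 50 genes were lower and 3 higher, in a comparison where 51.9% of all genes were called lower, 35.1% higher and 87.0% in all. Both lung arrays lay below all MNNG_Low arrays for 42 genes (all genes: 51%) and above for 3 (34.7%). The median of the 50 was -2.51 against -0.64 over all genes. It varied with signal level: the 18 genes in the brightest bin lay at -4.14 against -3.35 for all genes there, and the 11 in the dimmest bin that held any at -0.97 against 0.25. For 19 genes the lung mean was under 5.36, so the size of those differences is uncertain.

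RPA1, the large subunit of the single-strand binding protein, had 6.92 and 5.23 on the lung arrays (the array numbered 1233 and the mix) and 11.61 to 11.79 in MNNG_Low, a difference of -5.66 ± 0.28. The 2 lung arrays differed from each other by more than the whole range of MNNG_Low. UNG was close on both, at 5.30 and 5.37 against 9.10 to 9.27 (-3.86 ± 0.14), and so was GMNN, at 4.74 and 4.66 against 8.96 to 9.30 (-4.49 ± 0.17). ORC3 and CHAF1A were far apart between the lung arrays, at 6.64 and 3.64 and at 8.70 and 6.67.

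E2F1 was again the exception, at 9.70 and 9.54 on the lung arrays against 7.91 to 8.16 in MNNG_Low. Both lung arrays were above every other array of the series. The difference was 1.62 ± 0.18 (limma adjusted p = 1.30e-07), and its second probe set was higher by 1.08. LIG1, the ligase that seals the lagging strand, was higher by 0.54 ± 0.15, and POLA2 by 0.46 ± 0.20. GINS4, POLE, CCNE1, CHAF1A and CHAF1B were not called. Against MNNG_High 39 were lower and 4 higher, the same 3 and CHAF1B, where 47.6% of all genes were lower, 34.8% higher and 82.4% called in all. Lung arrays lay below all MNNG_High arrays for 40 genes (45.2%) and above for 4 (32.4%). Some probe sets disagreed: second probe sets of GINS2, CDT1, POLD3 and MCM4 were called higher in lung against MNNG_Low, at 2.55, 0.95, 1.13 and 0.48.

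As means over each list, other cell type signals were highest on these arrays. Single markers could differ: AIF1 at 9.52 and ACTA1 at 6.03 were below their MNNG_High means (9.76 and 6.87). LAMP3 at 5.56 was below its 143B_Low mean (5.75). Macrophage markers stood at 6.94 and 6.95, with all 11 means at the filter value or above, lung epithelium markers at 6.84 and 7.25 and lymphoid markers at 6.41 and 6.43. Endothelium, erythroid and skeletal muscle markers ran from 5.97 to 6.48, 7.77 to 8.03 and 5.96 to 6.49. Against MNNG_Low the median differences of these lists ran from 1.35 (lung epithelium) to 2.10 (macrophage). All genes of the dimmest bin by mean signal had a median of 1.31 in the same comparison. Of 7 osteosarcoma and osteoblast lineage genes 6 were tested and 3 were lower, the matrix genes COL1A1 and SPARC, with means of 8.98 and 7.00 in lung against 13.6 and 12.1 in MNNG_Low, and the lineage regulator RUNX2 with 6.68 against 10.5. COL1A2, VIM and SPP1 were not called (8.44, 14.3 and 4.33 against 8.56, 14.6 and 5.39), and ALPL, which did not pass the filter, was at 6.04 against 4.06. The 3′ minus 5′ signal of ACTB was -2.16 on the array numbered 1233 and -2.97 on the mix, below the 1.38 to 1.74 of MNNG_Low, and that of GAPDH was 0.446 and 0.938 in the same order, above the 0.34 to 0.41 there. The part of these signals in the lung result was not tested.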

How the data were processed

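The authors' deposited table holds log2 signals of 54675 probe sets on 18 arrays, made by RMA per the submitters' processing notes, which name no version. RMA corrects background, normalizes quantiles and summarises probes, so a shift common to most genes may not show. The platform annotation gave 1 gene to 41097 probe sets, several to 1801 and none to 11777, and only the first kind was used. No detection call was used.

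Differences were tested with limma 3.58.1 in R 4.3.3, in a single fit with a mean for each of 5 groups over 18 arrays (13 residual degrees of freedom), with Benjamini-Hochberg adjustment over 14418 genes and a threshold of 0.05. The script was tested on simulated data. Values written a ± b are log2 differences with the fitted standard error. Probe sets of 1 gene were tested in the same way, with adjustment over probe sets. There were 6 comparisons. Depth has no counterpart on arrays, and the number of arrays limits the precision.

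Groups and tumor numbers came from sample titles. Numbers pair High and Low arrays of a tumor. For paired MNNG/HOS arrays the deviations from group means had r = 0.494, 0.370, 0.299 and 0.579 across genes, and for tumor 143B-1253 r = 0.542. The pools gave -0.192 and 0.529 (51&52) and 0.243 and 0.0626 (54&55). All 50 genes could be named, with values for those of smallest p in their role or with disagreeing probe sets, and of the other pathway genes up to 6 of smallest p. The genes and lists were chosen with earlier results of these data known. The split by mean signal was added after seeing the data.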

Additional observations from a re-analysis of the deposited data

Results flagged for a closer look

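In the groups of 4 or 5 arrays, 9 of 150 sets of values had 1 array whose gap to the nearest other array was a large part of the whole range, and chance alone gives this in about 1 set in 20. Low 143B-1252 was low for GINS2 (9.61, others from 10.03 to 10.16) and for RFC2 (8.51, others from 8.76 to 8.87). Low 143B-1255 was low for CDC7 (7.74, others from 8.12 to 8.22) and POLE2 (8.65, others from 9.03 to 9.16), and Low 143B-1254 was high for GINS3 (7.69, others from 7.48 to 7.53). In MNNG_Low, array MNNG-1232 was low for DBF4 (8.87, others from 9.05 to 9.08), array MNNG-1231 high for RFC5 (9.03, others from 8.80 to 8.84) and array MNNG-1235 low for RPA1 (11.6, others from 11.77 to 11.79). In MNNG_High, array MNNG-1233 was high for PRIM2 (6.12, others from 5.70 to 5.72). None of the 50 genes was called for the difference between the lines in High minus Low (limma, 13 at an unadjusted p below 0.05), with 3 called under array weights.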

How the results depend on the processing

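Calls in either direction are counted here, against 24 of 50 for MNNG_High and MNNG_Low. The replicate block by tumor with the lung arrays left out gave 38 (36 without the block), a second quantile normalization 4, the GAPDH 3′ to 5′ difference as a covariate 11, and the date tag as a covariate or its second tag alone 0. Array weights gave 1 call in 143B and 3 for the difference between the lines, where the replicate block gave 0 in both. For 143B_Low and MNNG_Low, with 17 calls, leaving out the lung arrays gave 26, using only the compared groups 29, array weights 32 and leaving out probe sets of types _x_at and _s_at 11 of the 35 genes that keep a probe set. Of all genes, 37.2%, 45.3%, 48.7% and 28.4% were called, in the same order. No block was possible in that comparison, since the lines share no tumor. MNNG_Lung against MNNG_High gave 27 of 35 without those types (81.3% of all genes), against 43 of 50 (82.4%). Leaving out 1 array gave 8 to 25 calls in MNNG/HOS, 0 in 143B and for the difference, 11 to 18 between Low groups, 43 to 44 for lung against Low and 42 to 45 against High. Of all genes, 9.54% to 41.2% were called in these fits in MNNG/HOS and 23.9% to 26.1% between Low groups. For lung, with a bone tumor array left out, it was 85.8% to 86.2% against Low and 80.5% to 83.1% against High. The cause was not tested. Of 2287 recomputed differences of called genes, 2003 kept direction and call, 274 lost the call and 10 changed sign. In MNNG/HOS High minus Low, GINS2 was 0.064 as a mean of probe sets and 0.85 without types _x_at and _s_at. In lung minus Low, ORC5 was 0.80 and POLD1 0.60 after a second quantile normalization, ORC5 0.10 without the lung mix and -1.20 without the other lung array, POLD3 0.081 as a mean and GINS2 2.55 without the types. In lung minus High, CDT1 was 0.042 and POLD3 0.16 as means and GINS2 1.70. The number of arrays limits all counts.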
